A study of Mus musculus with 3 samples.

Results

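Receptors for the constant (Fc) part of immunoglobulins were followed in mouse kidney through 7 listed genes: Fcgr1, Fcgr3, Fcgr4, Fcer1g, Fcgr2b, Fcgrt and Pigr. They were taken by gene symbol, and 6 of the 7 had a probe set with that symbol alone, 1 each, among 19938 genes measured; Fcgrt was not analysed here. The probe sets were 10500335 for Fcgr1, 10360040 for Fcgr3, 10351509 for Fcgr4, 10360070 for Fcer1g, 10360028 for Fcgr2b and 10349580 for Pigr. Affymetrix Mouse Gene 1.0 ST arrays, which read a transcript through probes along its exons, were hybridised with total RNA of whole kidney from female mice of a strain labelled CBL/6, aged 8 to 10 weeks. The control array came from mice left untreated. The NTS array came from mice injected once with nephrotoxic serum, a sheep antiserum against the kidney that causes an antibody-driven nephritis, at 13.5 ug per g body mass. The NTS/PGE2 array came from mice that received this dose of serum and, each day from day 2, prostaglandin E2 at 5 ug per g. The treated mice were killed on day 7. The labels do not say when the control kidneys were taken, whether the control mice were given a vehicle or a non-immune serum, or how many animals stand behind an array. There was 1 array per group, so no difference has a replicate check and no p-value was computed.

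Fc gamma receptors bind IgG and let white blood cells respond to immune complexes, the trigger of nephrotoxic serum nephritis. The activating receptors Fcgr1, Fcgr3 and Fcgr4 signal through a separate partner, the common gamma chain encoded by Fcer1g, whose tyrosine motif recruits the kinase SYK. Fcgr2b encodes the inhibitory receptor, a single chain that recruits the phosphatase SHIP. Fcgrt encodes the neonatal Fc receptor, which salvages IgG from breakdown, and Pigr the polymeric immunoglobulin receptor, which carries IgA and IgM across epithelia; neither belongs to the Fc gamma signalling group.

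The Fc receptor genes did not shift as 1 block. On the NTS array Pigr stood 2.02-fold above control and Fcgr3 1.41-fold above it, while Fcer1g stood 1.94-fold, Fcgr4 1.42-fold and Fcgr2b 1.32-fold below it, and Fcgr1 was nearly level. On the NTS/PGE2 array Fcgr3 and Pigr were lower than on the NTS array, by 1.81-fold and 1.72-fold, and Fcer1g, Fcgr4 and Fcgr2b were higher, by 1.32-fold, 1.28-fold and 1.13-fold. Values are RMA signals on the log2 scale, and a difference of 1 is 2-fold. Below, the serum contrast is NTS minus control, the PGE2 contrast is NTS/PGE2 minus NTS, and the remaining contrast is NTS/PGE2 minus control. Genes were kept in a comparison when the larger of the pair of values was at or above the median probe set of its array, which was 7.11 for control, 7.11 for NTS and 7.14 for NTS/PGE2. Of the 7 listed genes, 4 passed this filter in each comparison: Fcgr3, Fcer1g, Fcgr2b and Pigr. Fcgr1 and Fcgr4 lay below the median, though above the 25th percentile of 5.77 to 5.79, on all 3 arrays.

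In the serum contrast 1 gene of the 4, Pigr, was at least 2-fold higher and 0 were at least 2-fold lower. The same size was reached upward by 2.7% and downward by 5.42% of the 11778 genes passing the filter. In the PGE2 contrast no Fc receptor gene reached 2-fold, against 4.15% of 11699 genes higher and 3.28% lower. In the remaining contrast none did either, against 0.0607% of 11534 genes higher and 0.659% lower. At 1.5-fold, the serum contrast held Pigr upward and Fcer1g downward, where 7.62% and 11.9% of the genes passing the filter lay. The PGE2 contrast held 0 members upward and Fcgr3 and Pigr downward, where 9.98% and 8.92% lay. The remaining contrast held 0 in either direction, against 0.555% and 2.15%. These are rules of size, and a count of 1 or 2 genes near a threshold carries little weight. Spread between probe sets was gauged from genes read by 2 probe sets above the filter. From the gap between both, a single probe set's SD came to 0.22 for the serum contrast, 0.22 for the PGE2 contrast and 0.13 for the remaining contrast. It leaves out the spread between animals and any error of an RNA sample or array that both probe sets share. A multiple of this SD is therefore not a ratio of signal to noise between arrays.

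**Figure D1:**
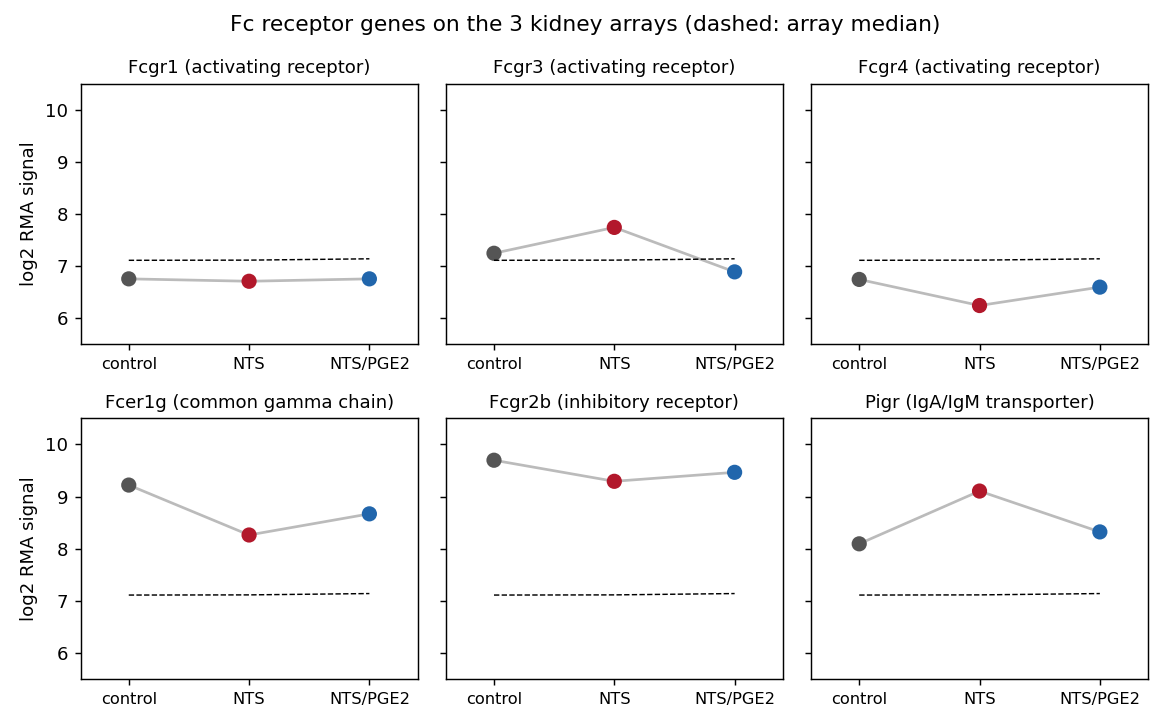
Log2 RMA signal (y axis) of the 6 measured genes on the control, NTS and NTS/PGE2 arrays (x axis); each point is 1 array and the dashed line joins the array medians. Fcgr3 and Pigr are highest on the NTS array, Fcer1g, Fcgr4 and Fcgr2b are lowest there, and Fcgr1 is nearly flat; heights of different genes are not comparable because their probes differ.

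Upstream sequences are shown for the 2 genes that stood above control on the NTS array, Pigr and Fcgr3, the 3 that stood below it, Fcer1g, Fcgr2b and Fcgr4, and the nearly level one, Fcgr1, so that the groups can be read side by side. Each is the 250 bases before the RefSeq transcription start in the GRCm38.p6 assembly, 5′ to 3′ on the strand of the gene, with matches to the searched motifs in capitals. Pigr spans chr1:130826434-130826683, plus strand, Fcgr3 chr1:171059404-171059653, minus strand, Fcer1g chr1:171234350-171234599, minus strand, Fcgr2b chr1:170976072-170976321, minus strand, Fcgr4 chr1:171018676-171018925, plus strand, and Fcgr1 chr3:96293970-96294219, minus strand. For Fcgr3, which has 2 listed starts, the first was used.
Pigr: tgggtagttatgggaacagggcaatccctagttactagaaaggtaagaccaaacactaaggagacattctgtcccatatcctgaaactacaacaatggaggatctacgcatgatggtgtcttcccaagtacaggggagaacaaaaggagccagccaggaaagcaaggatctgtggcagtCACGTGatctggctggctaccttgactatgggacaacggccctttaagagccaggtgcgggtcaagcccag
Fcgr3: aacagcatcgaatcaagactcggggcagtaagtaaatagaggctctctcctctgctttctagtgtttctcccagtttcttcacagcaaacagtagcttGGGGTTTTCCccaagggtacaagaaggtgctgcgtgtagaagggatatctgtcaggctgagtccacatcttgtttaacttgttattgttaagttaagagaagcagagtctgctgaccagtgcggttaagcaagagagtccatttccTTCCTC
Fcer1g: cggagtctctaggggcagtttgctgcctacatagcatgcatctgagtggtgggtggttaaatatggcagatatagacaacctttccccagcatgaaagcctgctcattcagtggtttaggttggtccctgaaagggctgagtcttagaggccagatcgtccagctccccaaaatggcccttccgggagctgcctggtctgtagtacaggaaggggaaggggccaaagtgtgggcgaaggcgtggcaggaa
Fcgr2b: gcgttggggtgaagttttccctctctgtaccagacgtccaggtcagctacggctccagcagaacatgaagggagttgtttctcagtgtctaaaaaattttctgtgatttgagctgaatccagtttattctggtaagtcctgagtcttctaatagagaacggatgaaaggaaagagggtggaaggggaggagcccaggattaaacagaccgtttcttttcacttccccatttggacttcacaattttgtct
Fcgr4: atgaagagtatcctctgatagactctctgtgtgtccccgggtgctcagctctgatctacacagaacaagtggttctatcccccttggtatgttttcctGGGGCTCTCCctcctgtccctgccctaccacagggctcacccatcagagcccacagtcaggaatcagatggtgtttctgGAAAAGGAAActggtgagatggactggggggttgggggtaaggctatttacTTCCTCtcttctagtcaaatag
Fcgr1: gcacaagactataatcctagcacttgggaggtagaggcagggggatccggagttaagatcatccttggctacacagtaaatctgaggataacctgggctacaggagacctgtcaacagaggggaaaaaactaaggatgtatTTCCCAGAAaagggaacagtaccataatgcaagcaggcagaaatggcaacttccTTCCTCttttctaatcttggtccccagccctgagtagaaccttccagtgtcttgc
The motifs, searched on both strands, were the gamma interferon activation site TTCNNNGAA (GAS), the PU.1 core GAGGAA, the core of the interferon-stimulated response element (ISRE; GAAA, 2 free bases and GAAA), the E box CACGTG and the NF-kB consensus. PU.1 is a transcription factor of myeloid cells. Of 27025 promoter windows of this length, 7.18% held the GAS, 23.1% the PU.1 core, 3.04% the ISRE core, 6.05% the E box and 3.75% the NF-kB consensus.

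The Pigr window held 1 motif, the E box CACGTG, 71 to 66 bases before the start. The Fcgr3 window held an NF-kB match, GGGGTTTTCC, 152 to 143 bases before the start, and the PU.1 core on the opposite strand directly before it. The Fcgr1 window held the GAS as TTCCCAGAA, 109 to 101 bases before the start, and the PU.1 core. The windows of Fcer1g and Fcgr2b held 0 of the 5 motifs. The Fcgr4 window held an ISRE core as GAAAAGGAAA, 73 to 64 bases before the start, a PU.1 core and an NF-kB match. No matches overlapped each other, and a match says only that the letters are there.

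Fcgr3 encodes the low-affinity activating receptor of macrophages, neutrophils and natural killer cells. Its log2 value was 7.24 in control, 7.74 in NTS and 6.89 in NTS/PGE2 kidney. NTS was highest and NTS/PGE2 lowest, so the PGE2-treated kidney lay below control and not between the other two. The NTS/PGE2 value was dim, below that array's median of 7.14, and the control value lay near its median of 7.11. Fcgr3 thus passed the filter for the PGE2 contrast through its NTS value alone. It differed by 0.50 in the serum contrast, and 9.74% of the genes passing the filter were at least as far up. It was -0.85 for the PGE2 contrast, where 4.54% of genes were at least as far down. For the remaining contrast it was -0.36. The 3 differences were 2.27, 3.81 and 2.79 times the probe set SD of their comparison in size.

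Fcgr4 encodes the mouse activating receptor of intermediate affinity on monocytes, macrophages and neutrophils. It read 6.74 in control, 6.24 in NTS and 6.60 in NTS/PGE2 kidney. NTS was lowest, where Fcgr3 was highest, and all 3 values were dim. The differences were -0.50 for the serum contrast, 0.35 for the PGE2 contrast and -0.15 for the remaining contrast. Dim values lie nearer to background, and no scanner background was analysed here.

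Fcgr1 encodes the high-affinity IgG receptor, a marker of macrophages. It read 6.75 in control, 6.71 in NTS and 6.75 in NTS/PGE2 kidney. The values were equal on the control and NTS/PGE2 arrays, and NTS differed from both by 0.05. That is less than the probe set SD, which came from genes above the filter and may not hold for Fcgr1. Equal values are common in these data: 37.0% of all genes were equal between NTS and control and 41.8% between NTS/PGE2 and control, so equality does not show that a transcript was at the same level.

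Fcer1g, the common gamma chain, is needed at the cell surface by all 3 activating receptors and by the mast cell IgE receptor. It read 9.22 in control, 8.26 in NTS and 8.67 in NTS/PGE2 kidney. NTS was lowest, and NTS/PGE2 lay between NTS and control. It differed by -0.96 in the serum contrast, 4.38 times the probe set SD, and 5.79% of the genes passing the filter were at least as far down. It was 0.41 for the PGE2 contrast, where 15.0% of genes were at least as far up, and -0.55 for the remaining contrast. Against control, 2.44% of genes were at least as far down on the NTS/PGE2 array. Of the 6 measured genes, Fcer1g was the farthest from control on the NTS/PGE2 array.

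Fcgr2b, the inhibitory receptor of B cells, myeloid cells and some endothelia, read 9.70 in control, 9.29 in NTS and 9.47 in NTS/PGE2 kidney. The arrays took the same order as for Fcer1g, over a narrower range. The differences were -0.40 for the serum contrast, 0.17 for the PGE2 contrast and -0.23 for the remaining contrast, or 1.85, 0.77 and 1.81 times the probe set SD in size. Differences of this size were common. At least as far down lay 17.3% of the genes passing the filter in the serum contrast and 11.7% in the remaining contrast. In the PGE2 contrast 25.9% were at least as far up. The extracellular parts of Fcgr2b and Fcgr3 are close in sequence, so probes there may read both transcripts, and the separate values of the 2 genes are uncertain.

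Pigr, the epithelial transporter, read 8.09 in control, 9.11 in NTS and 8.32 in NTS/PGE2 kidney. NTS was highest and NTS/PGE2 lay between NTS and control. It differed by 1.01 in the serum contrast, 4.63 times the probe set SD, and 2.66% of the genes passing the filter were at least as far up. It was -0.78 for the PGE2 contrast and 0.23 for the remaining contrast. Pigr passed the 2-fold size by 0.01, well inside the probe set SD. Markers of injured tubule epithelium moved with it: 11 of 11 were higher in the serum contrast, 8 by 2-fold, with a median of 1.99, and 11 of 11 lower in the PGE2 contrast, with a median of -2.22. The injury marker Havcr1 (Kim-1) read 6.77, 12.63 and 7.50 in control, NTS and NTS/PGE2. For the remaining contrast 8 of the 11 were lower and 2 higher, with a median of -0.24. The part of injured epithelium in the Pigr values was not tested.

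**Figure D2:**
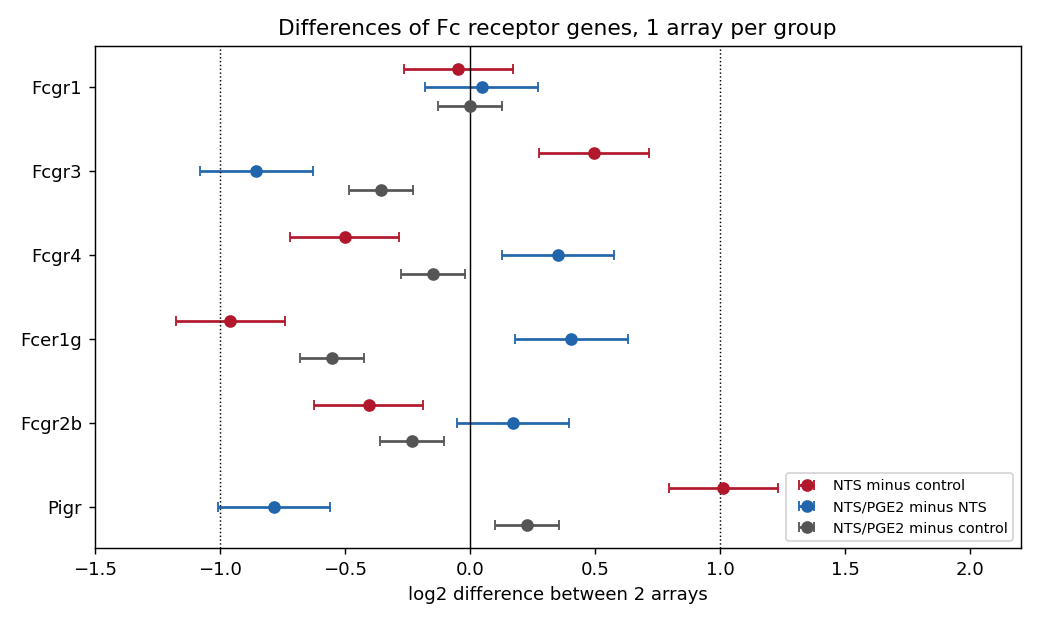
Log2 difference between 2 arrays (x axis) for each measured gene (y axis) in the 3 comparisons, with bars of 1 probe set SD (0.22, 0.22 and 0.13) and dotted lines at 2-fold. The SD came from genes above the filter and may not hold for Fcgr1 and Fcgr4, which lie below it. For NTS minus control Pigr (1.01) and Fcgr3 (0.50) lie right of 0 and Fcer1g (-0.96), Fcgr4 (-0.50) and Fcgr2b (-0.40) left of it; the comparisons share arrays and are not independent.

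The balance of activating to inhibitory receptors, and of a receptor to its signalling chain, can be read as the shift of a pair within an array; the pairs were chosen after the values were seen. Relative to Fcgr2b, Fcgr3 was 1.87-fold higher in NTS than in control kidney, a log2 shift of 0.90 with a probe set SD of 0.31. The pair shifted by -1.03 from NTS to NTS/PGE2, with an SD of 0.32, and stood at -0.12 against control, with an SD of 0.18. The other activating receptors were both below the filter. Fcgr1 relative to Fcgr2b shifted by 0.36, -0.13 and 0.23 in the serum, PGE2 and remaining contrasts, and Fcgr4 relative to Fcgr2b by -0.10, 0.18 and 0.08. The SDs came from genes above the filter and may not hold for these pairs. Relative to Fcer1g, the chain it needs, Fcgr3 shifted by 1.45 for the serum contrast, a 2.74-fold change of the ratio, by -1.26 for the PGE2 contrast and by 0.20 for the remaining contrast. These shifts show unequal differences, not which gene of a pair differed, and cross-reading of Fcgr2b and Fcgr3 by shared probes was not tested.

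**Figure D3:**
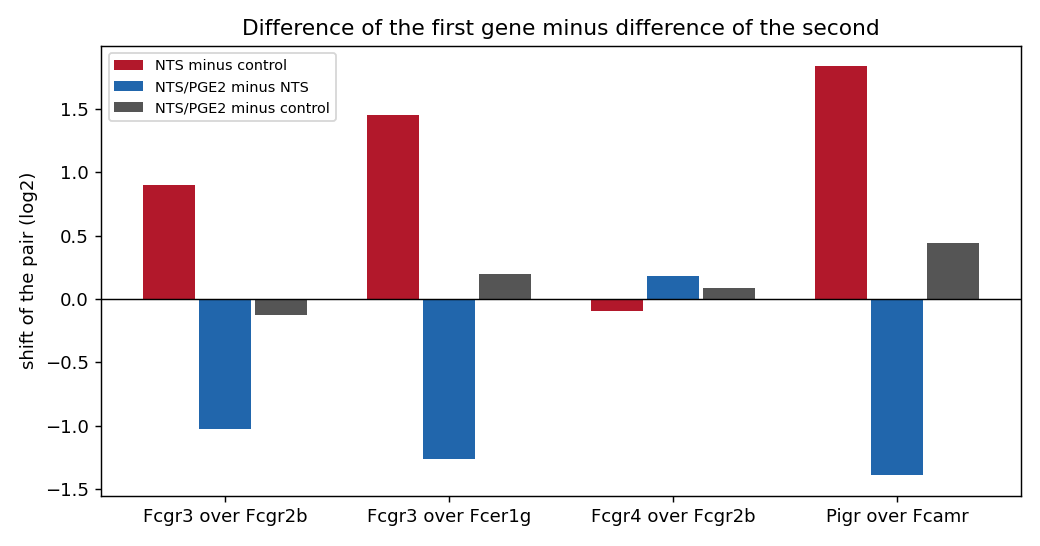
Shift of 4 gene pairs (x axis) on the log2 scale (y axis, the first gene's difference minus the second's) in the 3 comparisons, 1 array per group. Fcgr3 over Fcgr2b, Fcgr3 over Fcer1g and Pigr over Fcamr are positive for NTS minus control (0.90, 1.45 and 1.84) and negative for NTS/PGE2 minus NTS, and Fcgr4 over Fcgr2b stays within 0.18 of 0. Fcamr on NTS, Fcgr3 on NTS/PGE2 and Fcgr4 on all 3 arrays lie below the array median.

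Most Fc receptors of the myeloid group come from white blood cells, so macrophage markers were set beside them. In whole kidney fewer cells of a type and less RNA per cell cannot be told apart. Of 25 macrophage and monocyte markers, 13 were lower, 6 higher and 6 equal on the NTS array against control, with a median of -0.05 against 0 over all genes. The list's mean log2 value was 7.69 in control, 7.54 in NTS and 7.39 in NTS/PGE2 kidney, and its genes ranged from 5.47 to 10.47 on the control array. The list went both ways, as the Fc receptors did. Markers of lower value included Ly86 at -1.35 and the lysozyme gene Lyz2 at -1.19, and 4 of the 25 were farther down than Fcer1g. Markers of higher value included Cd68 at 2.23 and the LPS coreceptor gene Cd14 at 2.15, and 3 of the 25 were farther up than Fcgr3. For the remaining contrast 19 of 25 were lower, with a median of -0.30 beside -0.55 for Fcer1g, -0.36 for Fcgr3 and -0.23 for Fcgr2b. Of 3 markers, Aif1, Ccr2 and Msr1, the values lay below the 25th percentile on all 3 arrays. The part of macrophage RNA in the Fc receptor differences was not tested.

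Markers of other cell types were mostly dim or, for endothelium and tubules, mostly lower on NTS than on the other arrays. NTS was also lowest for Fcer1g, Fcgr4 and Fcgr2b, and the part of these cells in their values was not tested. Of 14 neutrophil markers 13 lay below the array medians throughout, and the exception, Lcn2, is also made by injured tubules. Of 13 B and plasma cell markers 10 lay below the medians on all 3 arrays, with a median of 0 for the serum contrast. Of 15 natural killer and T cell markers, 1, Thy1, passed the filter for the serum contrast. Endothelium, 1 site of Fcgr2b, had a median of -1.19 over 15 markers for the serum contrast and 1.12 for the PGE2 contrast, beside -0.40 and 0.17 for Fcgr2b. All 13 measured proximal tubule markers passed the filter in each comparison, and 12 of them were lower in the serum contrast. Of 13 loop, distal tubule and collecting duct markers, which all passed too, 12 were lower there, 7 of them by 2-fold, with a median of -1.03; for the PGE2 contrast 13 of 13 were higher, with a median of 1.10. Egf, a growth factor gene of the distal tubule, differed by -3.10 in the serum contrast. The loop marker Umod, chosen after its values were seen, read 13.70, 13.64 and 13.74 on control, NTS and NTS/PGE2.

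The control array carried far more fat transcript than the others. Of 11 fat markers, 10 were at least 2-fold below control in NTS and 9 in NTS/PGE2, and the brown fat gene Ucp1 read 11.84, 5.72 and 5.91 on control, NTS and NTS/PGE2. The mean log2 value of the list was 10.61, 7.27 and 7.36. Urothelium markers also had a negative median against control, at -0.97 for NTS and -1.52 for NTS/PGE2. So had smooth muscle markers, at -0.55 and -0.49, with 6 of 8 lower and 2 equal in each. Of 4 measured lymph node and spleen stroma markers, 2 were lower and 2 equal for NTS, with a median of -0.45. For NTS/PGE2 2 were lower, 1 higher and 1 equal, with a median of -0.17. Every Fc receptor difference against control rests on the control array, and the part of such tissue in them was not tested. The comparison of NTS/PGE2 with NTS does not use it, and there the differences were -0.85 for Fcgr3, -0.78 for Pigr and 0.41 for Fcer1g.

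Other Fc-binding genes were mostly dim or equal. Of 13 measured, 9 were equal between NTS and control, where 37.0% of all genes were. Below the 25th percentile on all 3 arrays lay 7 of the 13, and 0 reached 2-fold in any comparison. Fcamr, the receptor for IgA and IgM next to Pigr on chromosome 1, read 7.48 in control, 6.66 in NTS and 7.26 in NTS/PGE2 kidney. It was lowest where Pigr was highest, so the pair shifted by 1.84 for the serum contrast and by -1.39 for the PGE2 contrast. The Fcamr value on the NTS array was dim, below that array's median of 7.11. Fcamr thus passed the filter for the serum contrast through control alone and for the PGE2 contrast through NTS/PGE2 alone. On the other side of Pigr lies Fcmr, the IgM receptor gene, which read 6.70 on all 3 arrays. Fcer1a, the binding chain of the IgE receptor, read 4.28, 4.18 and 4.28 on control, NTS and NTS/PGE2, below the 25th percentile of each. Trim21, a cytosolic antibody receptor, read 7.59 on all 3 arrays, and B2m, the light chain that the neonatal Fc receptor needs, read 12.99 on all 3. Of the Fcgr genes, Fcgr4 lies between Fcgr2b and Fcgr3 on chromosome 1, and its value of -0.50 for the serum contrast stood beside -0.40 and 0.50.

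The few ligand transcripts measured were dim. Of the 12 immunoglobulin genes listed, 4 were measured and all lay below the array medians. Ighg1, Ighg2b, Ighg2c and the light chain genes Igkc, Iglc1 and Iglc2 were among those not measured. Of the listed IgG heavy chains only Ighg3 was thus read. Ighm, the IgM heavy chain, read 5.56 on control, 5.58 on NTS and 5.78 on NTS/PGE2, and Ighg3 read 4.90, 4.90 and 5.20. Igha, the IgA heavy chain carried by the Pigr product, read 5.97, 5.97 and 5.98, and Jchain, which joins IgA and IgM for that transport, read 5.86, 5.69 and 5.86. The injected sheep antibody is protein and leaves no transcript on the array.

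Among 21 measured genes that act downstream of the activating receptors, 10 were higher, 3 lower and 8 equal on the NTS array against control, and the list median was 0, as over all genes. Of the 11 that passed the filter, 2 were at least 2-fold higher and 0 lower, where 2.7% and 5.42% of all genes passing it were. Lat2, an adaptor of myeloid and mast cells, read 7.23 on control, 8.40 on NTS and 7.54 on NTS/PGE2. Gab2, a docking protein that binds PI3-kinase, read 9.51, 10.67 and 9.53. These 2 were the ones at least 2-fold higher, followed by the adaptor gene Blnk at 0.58 and Nckap1l, a part of the actin-regulating WAVE complex, at 0.41. Gab2 is also expressed outside white blood cells. The kinase gene Syk read 6.74, 7.03 and 6.74, dim on all 3 arrays. For the PGE2 contrast 12 of the 21 were lower and 1 higher, with Gab2 at -1.13, Blnk at -0.97 and Lat2 at -0.87. Against control on the NTS/PGE2 array 0 of the 21 reached 2-fold.

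Of 14 genes on the inhibitory side, 6 were higher, 4 lower and 4 equal for the serum contrast, 0 of them 2-fold, with a median of 0. Inpp5d, which encodes the SHIP phosphatase recruited by Fcgr2b, read 7.89 on control, 8.35 on NTS and 8.12 on NTS/PGE2, an order opposite to that of its receptor gene. The ubiquitin ligase gene Cblb was higher by 0.53 and the adaptor gene Pag1 by 0.40, while Ptpn11, the SHP-2 phosphatase, differed by 0.15. The phosphatase gene Ptpn6 (SHP-1) read 8.06, 8.04 and 8.06.

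Tyrobp encodes DAP12, an adaptor with the same kind of tyrosine motif as the gamma chain, in the same cells. It read 8.25 on control, 8.07 on NTS and 7.98 on NTS/PGE2, with -0.18 for the serum contrast where Fcer1g had -0.96. Relative to Tyrobp, Fcer1g shifted by -0.78 for the serum contrast and by 0.50 for the PGE2 contrast. Of the 14 adaptors and partner receptors of this kind measured, 9 were equal between NTS and control, where 37.0% of all genes were. Only 3 of the 14 passed the filter.

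Effectors of phagocytes went both ways. Of 14 genes of the superoxide burst and phagocytosis, 3 were higher, 6 lower and 5 equal for the serum contrast. Itgam, the CD11b chain of complement receptor 3 that works with Fc receptors in uptake of immune complexes, differed by 1.10. It read 6.59, 7.69 and 6.52 on control, NTS and NTS/PGE2, and reached the array median on NTS alone. The scavenger receptor gene Cd36, also abundant in fat, read 11.52, 10.51 and 11.32 in control, NTS and NTS/PGE2. Cybb, the catalytic chain of the phagocyte oxidase, read 8.64 on control, 7.95 on NTS and 8.36 on NTS/PGE2, the same order of arrays as Fcer1g. The actin bundling gene Lcp1 differed by -0.40. Among 15 inflammatory targets of IgG signalling, 6 were equal between NTS and control, near the 37.0% of all genes, and 5 passed the filter. The 2 that reached 2-fold went opposite ways: the adhesion gene Icam1 read 8.50, 9.61 and 8.61 in control, NTS and NTS/PGE2, and the cyclooxygenase gene Ptgs2 7.93, 6.70 and 7.66. Il1b, an inflammatory cytokine gene, read 7.35, 6.53 and 6.83, and the chemokine gene Cxcl1 6.91, 7.18 and 7.18. Ptgs2 lay below the array median on NTS, Il1b on NTS and NTS/PGE2, and Cxcl1 on control.

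Genes that carry receptors and their cargo through epithelial cells also split. All 18 passed the filter; 9 were higher, 5 lower and 4 equal for the serum contrast, 0 and 2 of them by 2-fold. The albumin receptors of the proximal tubule that work beside the neonatal Fc receptor were lower, with Lrp2 (megalin) at -1.40 and Cubn (cubilin) at -1.08. For the PGE2 contrast they differed by 1.81 and 1.36. Both also stand in the proximal tubule list, of which 12 of 13 genes were lower in the serum contrast, 10 by 2-fold, with a median of -1.46, and 12 of 13 higher in the PGE2 contrast, with a median of 1.56. Their part in the Lrp2 and Cubn values was not tested. Rab25, a GTPase of apical recycling endosomes, read 10.04 on control, 9.18 on NTS and 9.70 on NTS/PGE2, and Rab11fip5, a RAB11 effector, read 8.99, 9.80 and 8.76. Rab11fip5 thus took the order of Fcgr3, with NTS highest and NTS/PGE2 lowest, while Rab25 took the order of Fcer1g.

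**Figure D4:**
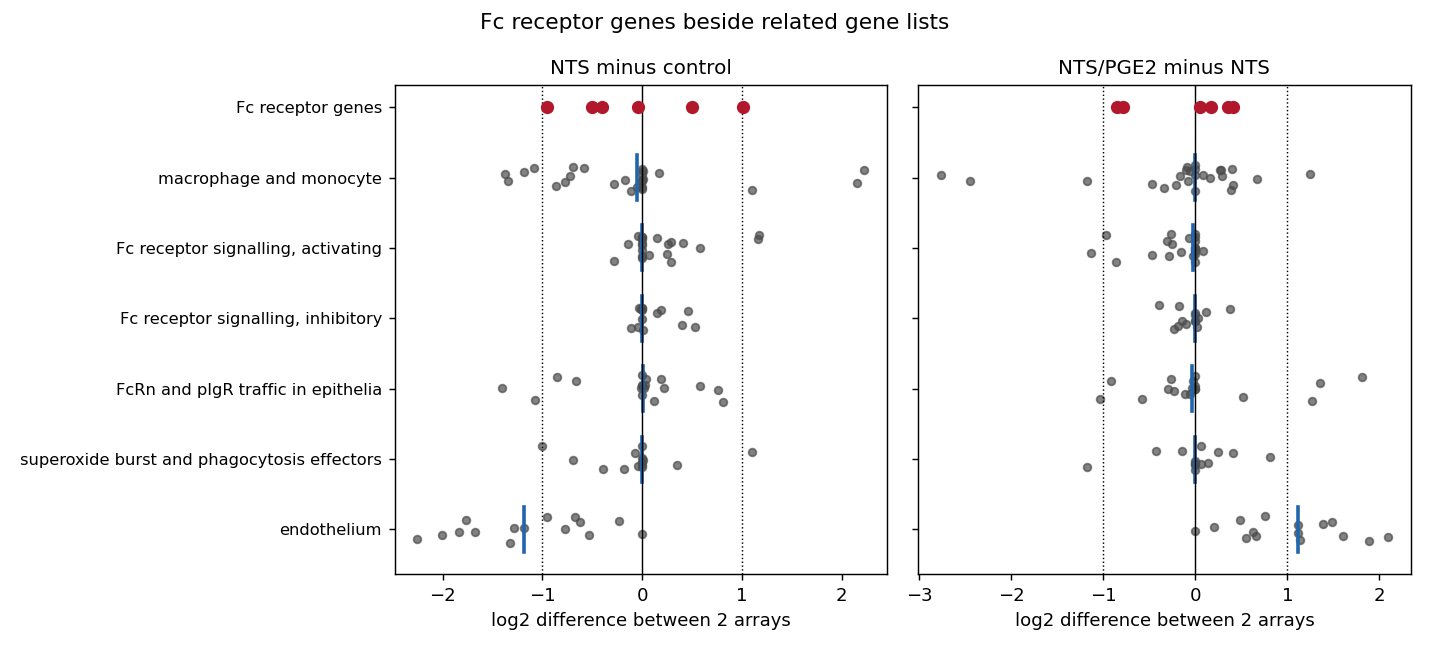
Log2 difference between 2 arrays (x axis) for the Fc receptor genes (red) and the genes of 6 related lists (grey, with the list median as a blue bar), for NTS minus control on the left and NTS/PGE2 minus NTS on the right; dotted lines mark 2-fold. Fc receptor genes spread from -0.96 to 1.01 on the left, as macrophage genes spread to both sides of a median of -0.05, while endothelium genes have a median of -1.19.

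The genes with the most similar patterns were found by distance over 2 differences, NTS against control and NTS/PGE2 against control, among 11337 named genes with their highest value at or above the array median, predicted transcripts left out; with 3 arrays many genes lie close by. Nearest to Fcgr3 were Fam20a, Pygb, Orc6, Mfge8 and Tmem256, at distances of 0.004 to 0.042. Nearest to Fcer1g were Zmat5, Cpm, Lin7a, Slc7a7 and Cyb5b, at 0.013 to 0.039. Nearest to Pigr were Lrrfip2, Zbtb42, Sgtb, Dnajc5 and Nectin1, at 0.031 to 0.075. Nearest to Fcgr4 were Mob3b, Ndufa8, Ube2w, Slc37a4 and Fam169b, at 0.009 to 0.017. None of these 20 genes is in the lists of immune cell markers. Those lists hold few of the 11337 genes searched, so their absence here carries little weight. Fcgr1 and Fcgr2b differed by less than 0.5 in each comparison and were not searched.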

How the data were processed

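Gene expression was measured in kidney RNA, 250 ng per array, with 1 array each for control, NTS and NTS/PGE2, grouped by the labels. The deposited values are log2 signals that the authors made with Affymetrix Expression Console and RMA, per the submitters' processing notes; their versions and the build were not given in the sources used here. The method corrects background, equalises the arrays' distributions and summarises probes by median polish over the 3 arrays, which can give exactly equal values and understate small differences: 25.4% of 35556 probe sets were equal on all 3. Of the 35556, 21789 had 1 symbol in the platform annotation, 1621 several and 12146 were unnamed here; 21698 matched a GRCm38.p6 gene table, and probe sets of a gene were averaged (Python 3.11.15, pandas 2.3.3). Differences are between arrays, with no test; the calculation was tested on simulated data. The number of arrays limits the precision. The SD of a probe set's difference came from 468 to 480 genes with 2 probe sets. Members and lists were chosen with earlier results of these data known. Named genes were all members, up to 4 of each list by size of difference for NTS against control among those passing the filter, genes of a fixed role, and the 5 nearest in pattern; others named were chosen after their values were seen. Alternatives varied the size rule, filter, centring and probe set handling. Upstream sequences came from RefSeq (GRCm38.p6), which held all 7 members.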

Additional observations from a re-analysis of the deposited data

How the results depend on the processing

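With 1 array per group nothing could be left out, and animals' spread is unknown. No paired analysis was possible because each group has 1 array. Each of 72 recomputed member differences, with arrays centred on their medians or on their bright probe sets, with the brightest probe set per gene, or with probe sets of several symbols included, moved by at most 0.03 on the log2 scale. The sign changed in 2 of them, both for Fcgr1 in NTS/PGE2 against control, at -0.03 and 0.03 in place of 0. Small moves were built in. Each measured member has 1 probe set, so taking the brightest could not change its value. Centring moves all genes of a comparison by the same amount, at most 0.03. These settings therefore do not check how repeatable a member difference is. Of 54 recomputed counts, 5 moved by more than 1.5 times, all with the size rule of 1.5-fold: members lower became 1 for the serum contrast and 2 for the PGE2 contrast, in place of 0, and all genes past the rule became 2304 for the serum contrast, 2211 for the PGE2 contrast and 312 for the remaining contrast. A lower size rule passes more genes by construction. No filter, or one at the 25th percentile, added no member at 2-fold. Signal over background could not be checked, which limits Fcgr1 and Fcgr4 most, and also the dim Fcgr3 value on the NTS/PGE2 array.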

Other observations

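Genes answering to interferon gamma, the cytokine that induces Fcgr1 and Fcgr4 in macrophages, went both ways. Of 15 measured, 4 were higher, 7 lower and 4 equal for the serum contrast, with a median of 0. The immunity-related GTPase gene Iigp1 read 7.42 in control, 6.01 in NTS and 6.90 in NTS/PGE2 kidney, and the chemokine gene Cxcl9 read 7.44, 6.34 and 6.90. Both had the order of Fcgr4, with NTS lowest, and both reached the array median on control alone. Psmb8, an immunoproteasome subunit, read 7.24, 7.84 and 7.01, and thus had the order of Fcgr3, with NTS highest and NTS/PGE2 lowest. Icam1, whose values stand above, was the 1 gene of the list at least 2-fold higher in the serum contrast, and Iigp1 and Cxcl9 were the 2 at least 2-fold lower. Irf8, a transcription factor of myeloid cells, read 8.03, 8.30 and 7.92, and had that order too. Irf8 was chosen after its values were seen.

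Of 10 dendritic cell markers, 3 were higher, 4 lower and 3 equal for the serum contrast, with a median of 0. The 3 that passed the filter there were Cd209a at -1.20, Ccr7 at 0.11 and Zbtb46 at 0. Cd209a read 7.25, 6.04 and 7.02 on control, NTS and NTS/PGE2, and reached the array median on control alone. Mast cell markers were dim: 6 of 10 lay below the 25th percentile on all 3 arrays. Hdc, which makes histamine and is also a kidney gene, read 8.51, 7.83 and 9.50, the highest value being on the NTS/PGE2 array.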
